A study of Mus musculus with 16 samples.

Results

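miR-26a-5p and miR-26b-5p are the mature microRNAs of the miR-26 family, and they were followed across 16 small RNA libraries of splenic type 1 conventional dendritic cells (cDC1s). They were found in the count table by their miRBase identifiers, MIMAT0000533 for miR-26a-5p and MIMAT0000534 for miR-26b-5p, and are 2 of the 853 microRNAs of that table. Both passed the filter on low counts. The cells came from spleens of C57BL6 mice in 4 groups of 4 libraries: Xbp1 KO cells and WT cells of the Xbp1 line, and Xbp1-Ire1 KO cells (called compound KO here) and WT cells of the compound line. Both KO groups lack Xbp1, and the compound KO lacks Ire1a in addition. The sources used here do not give the deleting Cre, the age or sex of the mice, or whether each library is a separate mouse. The p-values therefore speak to the spread among libraries, part or all of which may be technical. A table of mature microRNAs holds neither the targeted transcripts nor the messenger RNA markers that define cDC1s, so genotype and cell type were taken from the labels.

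IRE1, the product of Ire1a, is a sensor of unfolded proteins in the endoplasmic reticulum, and through its ribonuclease the Xbp1 mRNA is spliced to the form that yields active transcription factor. With Xbp1 lost, this ribonuclease can cleave other RNAs, some microRNA precursors among them, which is the question behind comparing the KO lines. A microRNA guides Argonaute to messenger RNAs that pair with its seed (bases 2 to 8 from the 5′ end) and lowers their output. The miR-26 family is broadly expressed, and its best known targets include Ezh2, the histone H3K27 methyltransferase. Its genes lie in introns of the CTDSP genes, which encode small phosphatases that act on the RNA polymerase II tail and on RB.

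The mature sequences are shown because they set what the counts can tell apart. They are from RefSeq (GRCm38.p6), 5′ to 3′, with the seed in capitals.
miR-26a-5p: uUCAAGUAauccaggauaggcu
miR-26b-5p: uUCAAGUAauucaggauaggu
The seed is the same in both, and no other of the 1679 mature mouse microRNAs in the RefSeq table carries it. Counted from the 5′ end without gaps, the members differ at C11U and C21U (miR-26a-5p first), and miR-26a-5p is 22 bases long against 21. With a gap allowed, the C at position 21 is a base that miR-26b-5p lacks. The edit distance between them is 2, whereas the nearest other mature microRNA is 8 edits away from either. The sources used here do not say how reads matching both members were assigned. Some reads could be split between them, while reads of other microRNAs are less easily mistaken for them.

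The hairpins are shown because miR-26a-5p has 2 source genes that its count cannot separate, and because they are what a ribonuclease acting on precursors would meet. The mature 5p arm is in capitals.
Mir26a-1: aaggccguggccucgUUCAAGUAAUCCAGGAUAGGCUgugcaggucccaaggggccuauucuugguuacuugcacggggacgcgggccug
Mir26a-2: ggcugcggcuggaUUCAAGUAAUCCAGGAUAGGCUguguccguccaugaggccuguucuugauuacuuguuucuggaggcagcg
Mir26b: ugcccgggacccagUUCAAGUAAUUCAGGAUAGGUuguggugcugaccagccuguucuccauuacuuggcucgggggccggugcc
All 3 lie on the plus strand of GRCm38. Mir26a-1 is at chr9:119031796-119031885, in intron 5 of the 8-exon transcript of Ctdspl. Mir26a-2 is at chr10:126995530-126995613, in intron 5 of the 8-exon transcript of Ctdsp2, while an exon of a 3-exon Ctdsp2 transcript overlaps it in GENCODE M21. Mir26b is at chr1:74394310-74394394, in intron 4 of the 7-exon transcript of Ctdsp1. The 5p arms occupy chr9:119031811-119031832, chr10:126995543-126995564 and chr1:74394324-74394344.

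CUGCAG is a hexamer at which IRE1 is known to cut XBP1 mRNA, within a loop. That hexamer occurs in none of the miR-26 hairpins, and in 6.36% of the 110 RefSeq mouse hairpins of 84 to 90 bases. UGCAG, the hexamer without its first base, occurs once, at position 39 of Mir26a-1, just after the 5p arm, and in 20.9% of hairpins of that length. The shorter GCAG, contained in both, is in Mir26a-1 at position 40 and in Mir26a-2 at position 79, and in 43.6% of those hairpins. Only the RNA strand was searched, and other variants of the cleaved hexamer were not. These are matches of letters, not cleavage sites. The 3p arms of the hairpins have names in RefSeq but no identifier that ties them to the count table, so no value is given for them.

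Total counts ranged from 175165 to 1403393 per library, and Xbp1 KO libraries (mean 1065596) were deeper than compound KO libraries (mean 524042). The members had ample reads at this depth: miR-26a-5p had 6173 to 46448 counts per library and miR-26b-5p 493 to 4730. miR-26a-5p ranked between 5 and 9 among all microRNAs of a library and held 2.93% to 4.43% of its counts. miR-26b-5p ranked between 26 and 40 and held 0.236% to 0.433%. The widest exact (Clopper-Pearson) 95% interval for counting error was that of the shallowest library, compound KO replicate 4, at 3.44% to 3.61% for miR-26a-5p and 0.257% to 0.307% for miR-26b-5p. Such intervals cover counting error only, since reads without molecular identifiers are not independent molecules. Levels of different microRNAs also depend on how well each one is ligated and amplified, so the ratio of the members is that of their reads.

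**Figure D1:**
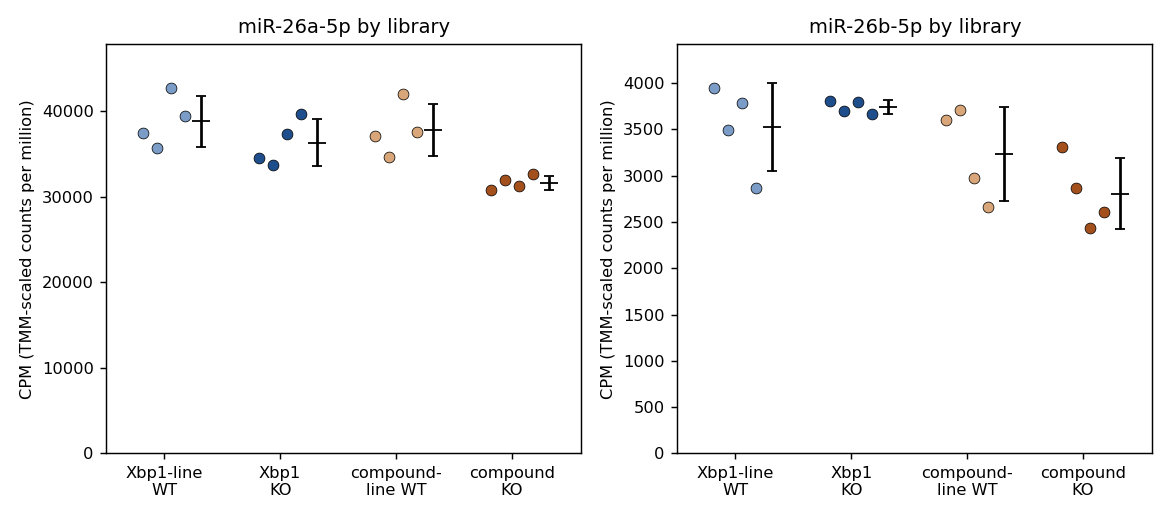
Levels of miR-26a-5p (left) and miR-26b-5p (right) in CPM on TMM-scaled library sizes, 1 point per library, with the mean and SD of each group of 4 as bars; both axes start at 0. On this scale the compound KO points of miR-26a-5p, 30744 to 32622 CPM, lie below all other groups, and those of miR-26b-5p overlap both WT groups. Of all 255 microRNAs tested, 5.10% lie wholly below the compound-line WT and 7.06% wholly below Xbp1 KO. The share below all groups at once was not computed.

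miR-26a-5p was at its lowest in compound KO cells. CPM here are the usual depth-normalised counts, on library sizes scaled by TMM, edgeR's trimmed mean method. The Xbp1-line WT libraries stood at 37426, 35753, 42734 and 39407 CPM (replicates 4, 5, 6 and 8), the Xbp1 KO libraries at 34575, 33675, 37315 and 39735 CPM (replicates 1 to 4). The compound-line WT libraries stood at 37161, 34617, 41992 and 37529 CPM, and the compound KO libraries at 30744, 31965, 31232 and 32622 CPM, each in the order of replicates 1 to 4. On this scale all 4 compound KO libraries were below every library of the other groups, whose ranges overlapped one another. Of all 255 microRNAs tested, 5.10% lay wholly below the compound-line WT in this way and 7.06% wholly below Xbp1 KO. The share below all other groups at once was not computed. The separation from Xbp1 KO depended on TMM. As percent of all counts, compound KO replicate 4 (3.52%) was above Xbp1 KO replicates 1 to 3 (3.24%, 3.34% and 3.31%). In order of the mean, the groups were Xbp1-line WT (38830 ± 3001 CPM, SD, n = 4), compound-line WT (37825 ± 3065), Xbp1 KO (36325 ± 2750) and compound KO (31641 ± 824). The WT groups, first and second in this order, had an edgeR adjusted p of 0.956, and the KO groups, last in it, one of 0.286. The compound-line WT and Xbp1 KO, which the design does not set against each other, overlapped.

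miR-26b-5p, with 1 read for every 9.07 to 14.1 reads of miR-26a-5p, showed another order. The Xbp1-line WT libraries stood at 3949, 3495, 3782 and 2870 CPM (replicates 4, 5, 6 and 8), the Xbp1 KO libraries at 3812, 3695, 3800 and 3664 CPM. The compound-line WT libraries stood at 3601, 3707, 2972 and 2657 CPM, the compound KO libraries at 3312, 2862, 2432 and 2605 CPM. Xbp1 KO libraries lay close together and all of them were above all compound KO libraries. Such a separation in this direction held for 7.06% of all 255 microRNAs tested. The compound KO values overlapped those of both WT groups. The means were 3743 ± 74.3 CPM in Xbp1 KO (SD, n = 4), 3524 ± 474 in the Xbp1-line WT, 3234 ± 503 in the compound-line WT and 2803 ± 383 in compound KO. No neighbours in this order passed edgeR's quasi-likelihood test (adjusted p 0.840, 0.850 and 0.516 from the top down).

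Loss of Xbp1 alone was tested against the WT of its line. For miR-26a-5p the log2 fold change was −0.10 (95% interval −0.30 to 0.11, SE 0.10) and for miR-26b-5p it was 0.09 (interval −0.20 to 0.375, SE 0.14). Adjusted in edgeR over all 255 microRNAs tested, p was 0.724 and 0.840. Neither passed, in a comparison where 2.35% of all microRNAs did. The median log2 fold change of all microRNAs was −0.07, so relative to it miR-26a-5p stood at −0.03 and miR-26b-5p at 0.15. Without Xbp1-line WT replicate 4 the value of miR-26b-5p was 0.19, and without Xbp1 KO replicate 1 that of miR-26a-5p was −0.019. For both members the direction turned with the scaling: miR-26a-5p was at 0.03 with upper-quartile scaling and miR-26b-5p at −0.02 with total counts alone.

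Compound loss of Ire1a and Xbp1 was tested against the WT of the compound line. In miR-26a-5p the log2 fold change was −0.26 (95% interval −0.46 to −0.06, SE 0.10), a difference of −16.4%, with an unadjusted p of 0.0150 and an adjusted p of 0.132 in edgeR. It ranked at 29 among the 255 microRNAs by p and did not pass, where 5.88% of all microRNAs did. Its 4 compound KO libraries lay wholly below the 4 WT libraries, which held in that direction for 5.10% of all microRNAs. miR-26b-5p gave −0.21 (interval −0.50 to 0.08, SE 0.14, edgeR adjusted p 0.516), with overlapping ranges, and stood at −0.37 without compound KO replicate 1. The median of all microRNAs was 0.04, so relative to it the members stood at −0.30 and −0.25.

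Whether miR-26a-5p passed in compound KO cells depended on the processing, whereas its direction did not. It passed in 13 of 45 alternatives, with adjusted p from 0.00126 to 0.452 and log2 fold changes from −0.53 to −0.20. Among those in which it passed were DESeq2 (−0.26, adjusted p 0.0244), edgeR with total counts alone (−0.36, adjusted p 0.0342) and edgeR with upper-quartile scaling (−0.53, adjusted p 0.00126). With all 8 WT libraries as control it passed in edgeR at −0.28 (adjusted p 0.0317). Much of the spread was common to all microRNAs: upper-quartile scaling moved their median from 0.04 to −0.24, and relative to the median miR-26a-5p stayed between −0.32 and −0.24 in all 45 alternatives.

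**Figure D2:**
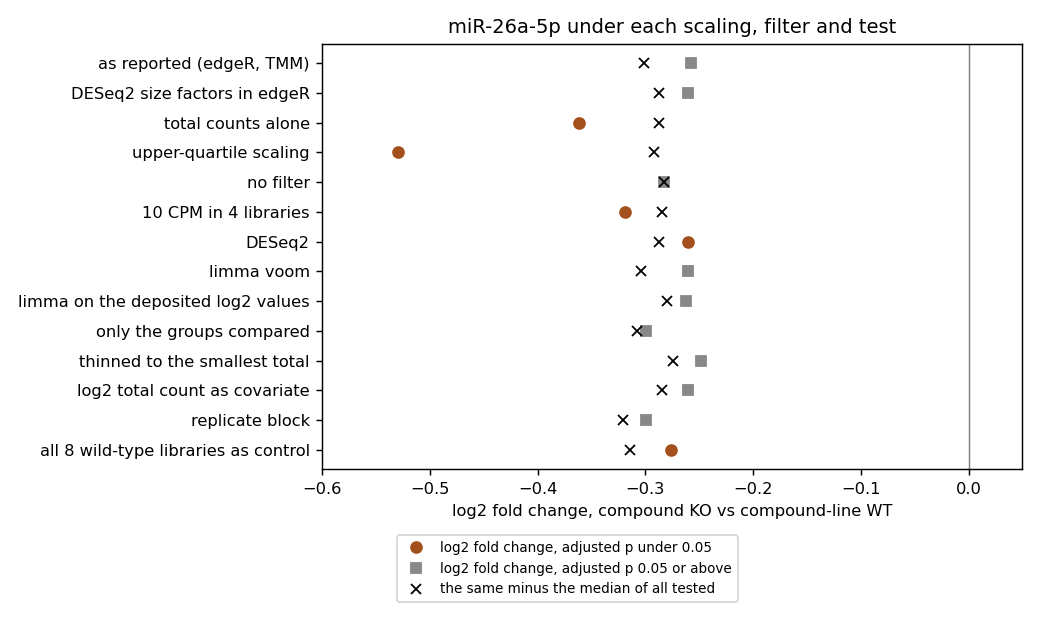
Log2 fold change of miR-26a-5p in compound KO against compound-line WT under each scaling, filter, test and control (leave-one-out fits are not drawn): circles passed at an adjusted p under 0.05, squares did not, and crosses give the same value minus the median of all microRNAs tested. The circles and squares run from −0.53 to −0.25, while the crosses stay between −0.32 and −0.27.

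Leaving out 1 library changed the filter as well as the samples. When 1 library was left out in turn, miR-26a-5p passed in 8 of 16 edgeR fits, 7 of them without a library of the Xbp1 line, which is not part of the comparison. With a group of 3, the filter kept 264 to 269 microRNAs in place of 255 and the scaling changed with them. With the 255 microRNAs held fixed, an alternative chosen after the data were seen, miR-26a-5p passed in 0 of 16 such fits, with log2 fold changes of −0.35 to −0.20 and edgeR adjusted p of 0.0680 to 0.286.

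The compound and the Xbp1 comparison share no library, and their changes were set against each other in a single test. For miR-26a-5p the compound change minus the Xbp1 change was −0.16 on the log2 scale (95% interval −0.45 to 0.12, SE 0.14), and for miR-26b-5p it was −0.29 (interval −0.70 to 0.12, SE 0.20). With edgeR these had adjusted p of 0.843 and 0.723. A different response of the members to the 2 genotypes was therefore not detectable with these libraries, and the intervals leave room for differences of up to 0.45 and 0.70. With TMM and the filter on low counts, edgeR called 0% of all microRNAs here, while 26 of 255 had an unadjusted p under 0.05. It called 2 with no filter and 3 under upper-quartile scaling, DESeq2 called 1 and limma voom 0. Leaving out single libraries, which also changed the filter, moved these values by over 1.5 times: miR-26a-5p stood at −0.31 without Xbp1 KO replicate 1, and miR-26b-5p at −0.49 without compound KO replicate 1. With the 255 microRNAs held fixed, miR-26a-5p ran from −0.25 to −0.11 and miR-26b-5p from −0.41 to −0.21. With upper-quartile scaling the difference for miR-26a-5p was −0.56 (edgeR adjusted p 0.0454), the 1 alternative of 42 in which it passed.

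The mean of both changes, KO against WT within each line, was −0.18 for miR-26a-5p (95% interval −0.32 to −0.03, SE 0.07, unadjusted p 0.0176, edgeR adjusted p 0.135). For miR-26b-5p it was −0.06 (interval −0.26 to 0.14, SE 0.10, edgeR adjusted p 0.827). Neither passed, against 7.45% of all microRNAs. miR-26a-5p passed in DESeq2 (−0.16, adjusted p 0.0474), with total counts alone (−0.28, edgeR adjusted p 0.0124) and with upper-quartile scaling (−0.25, edgeR adjusted p 0.0244).

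Between the KO genotypes the larger difference was in miR-26b-5p. Compound KO against Xbp1 KO cells gave a log2 fold change of −0.42 (95% interval −0.71 to −0.13, SE 0.14), a difference of −25.1%, with an unadjusted p of 0.00736 and an edgeR adjusted p of 0.0751. miR-26a-5p gave −0.20 (interval −0.40 to 0.00, SE 0.10, edgeR adjusted p 0.286). Neither passed, where 7.45% of all microRNAs did. In TMM-scaled CPM every compound KO library was below every Xbp1 KO library for both members, which held for 7.06% of all microRNAs. As percent of counts without TMM, the ranges of miR-26a-5p overlapped (2.93% to 3.52% in compound KO, 3.24% to 3.79% in Xbp1 KO). Those of miR-26b-5p did not. This comparison uses the KO libraries of both comparisons with WT and is not independent of them.

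miR-26b-5p passed between the KO genotypes in 16 of 44 alternatives, with DESeq2 at −0.46 (adjusted p 0.0118), upper-quartile scaling at −0.66 (edgeR adjusted p 0.0122) and no filter at −0.58 (edgeR adjusted p 0.0314) among them. Leaving out 1 library in turn, it passed in 10 of 16 edgeR fits, 8 of them without a WT library, which is not part of the comparison. With the 255 microRNAs held fixed it passed in 2 of 16. These were without compound-line WT replicate 4 (−0.44, edgeR adjusted p 0.0474), also outside the comparison, and without compound KO replicate 1 (−0.51, edgeR adjusted p 0.0390). Relative to the median of all microRNAs, which was 0.13 in this comparison, miR-26b-5p stood at −0.55. Depth and genotype went together here: mean total counts were 1065596 in Xbp1 KO and 524042 in compound KO. Their parts in this difference cannot be told apart. Across the 16 libraries, which fall into groups of unequal depth, log2 CPM of miR-26b-5p and log2 total count had a Pearson r of 0.67 (Spearman rho 0.69, r of 0.45 within groups), against 0.18 for miR-26a-5p. With log2 total count as a covariate the difference was −0.28 (edgeR adjusted p 0.474), and with all libraries thinned to 175165 counts it was −0.49 (edgeR adjusted p 0.0620). Calls over all microRNAs in this comparison also fell, from 19 to 3 with the covariate and to 5 after thinning.

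Neither member differed detectably between the WT groups of the lines, but the intervals leave room for differences of either sign. Compound-line WT against Xbp1-line WT gave a log2 difference of −0.04 for miR-26a-5p (95% interval −0.24 to 0.16, SE 0.10) and of −0.12 for miR-26b-5p (interval −0.41 to 0.17, SE 0.14), with edgeR adjusted p of 0.956 and 0.850. With TMM and the filter on low counts, edgeR called 0% of all microRNAs here, and 24 had an unadjusted p under 0.05. It called 14 without the filter and 2 when only these groups were fitted, DESeq2 called 4 and limma voom 0. Without compound-line WT replicate 2 the difference for miR-26b-5p was −0.22. Both directions turned with upper-quartile scaling, to 0.12 and 0.04.

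**Figure D3:**
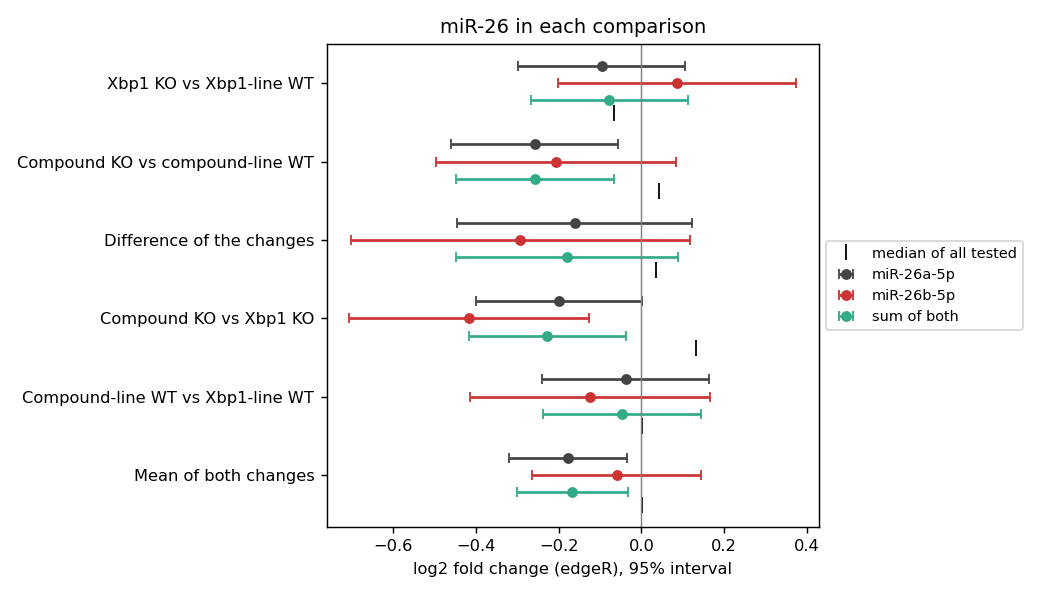
Log2 fold changes with 95% intervals from edgeR for miR-26a-5p, miR-26b-5p and the sum of both in the 6 comparisons; black ticks give the median of all microRNAs tested. Intervals of miR-26a-5p and of the sum lie below 0 in the compound comparison and in the mean of both changes, and those of miR-26b-5p and the sum do so between the KO genotypes; no adjusted p is under 0.05.

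Since the members share their seed, their counts were also summed to 1 feature and the whole table was refitted. The sum was 42354 ± 3051 CPM in the Xbp1-line WT (SD, n = 4), 40067 ± 2726 in Xbp1 KO, 41059 ± 2804 in the compound-line WT and 34443 ± 711 in compound KO. The compound KO libraries, at 33664 to 35227 CPM, were below all other libraries, of which the lowest stood at 37370 CPM. Of all microRNAs, 5.10% lay wholly below the compound-line WT in this way and 7.06% wholly below Xbp1 KO. For the other groups taken all at once, the share was not computed. As percent of counts without TMM, the sum in compound KO (3.24% to 3.81%) overlapped that in Xbp1 KO (3.59% to 4.13%). Against its WT the sum gave a log2 fold change of −0.26 in compound KO (95% interval −0.45 to −0.07, SE 0.09, edgeR adjusted p 0.116) and of −0.08 in Xbp1 KO (interval −0.27 to 0.11, edgeR adjusted p 0.766). Between the KO genotypes it was −0.23 (interval −0.42 to −0.04, edgeR adjusted p 0.176). The compound comparison passed in 12 of 44 alternatives, DESeq2 among them at −0.26 (adjusted p 0.0103). With miR-26a-5p making up over 90% of the summed counts in every library, these values follow that member.

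The share of miR-26a-5p in the summed counts is a measure that no library scaling can move. It was 90.5%, 91.1%, 91.9% and 93.2% in the Xbp1-line WT libraries and 90.1%, 90.1%, 90.8% and 91.6% in the Xbp1 KO libraries. In the compound line it was 91.2%, 90.3%, 93.4% and 93.4% in the WT and 90.3%, 91.8%, 92.8% and 92.6% in the KO libraries. The groups overlapped in all 4 comparisons. The difference of means was −1.03 percentage points for Xbp1 KO against WT, −0.21 for compound KO against WT, 1.23 for compound KO against Xbp1 KO and 0.41 between the WT groups. The exact two-sided permutation p was 0.200, 0.800, 0.114 and 0.657, where 4 against 4 libraries allow 0.0286 at best, and adjusted over the 4 tests they were 0.400, 0.800, 0.400 and 0.800. A shift in 1 comparison alone could reach an adjusted p of 0.114 at best, so this design could not pass one.

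Within groups the share spanned 2.75 percentage points in the Xbp1-line WT, 1.49 in Xbp1 KO, 3.06 in the compound-line WT and 2.50 in compound KO. The widest exact 95% interval of a single share was 91.9% to 93.2%. Pooled within groups, the share had a Pearson r of −0.90 with log2 CPM of miR-26b-5p and of 0.66 with that of miR-26a-5p (16 libraries). In Xbp1 KO, however, log2 CPM varied more for miR-26a-5p (SD 0.108) than for miR-26b-5p (SD 0.029). The other groups had the larger SD in miR-26b-5p. These measures share the same counts, so the relations are descriptions. With log2 total count the share had a Pearson r of −0.56 over the 16 libraries (Spearman rho −0.61) and of −0.43 within groups.

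**Figure D4:**
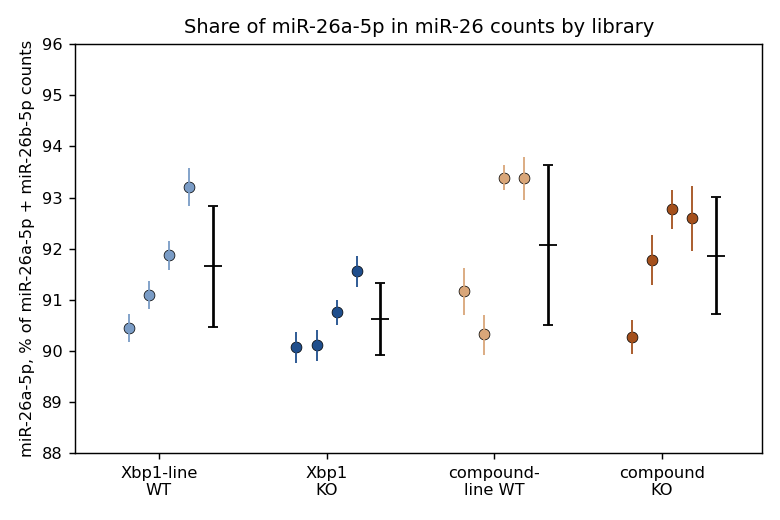
Counts of miR-26a-5p as percent of the counts of both members, 1 point per library with its exact 95% binomial interval, and the mean and SD of each group of 4 as black bars, on an axis that does not start at 0. Libraries of 1 group differ by up to 3.06 percentage points, and the groups overlap.

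The members did not closely follow each other from library to library. Over the 16 libraries their log2 CPM had a Pearson r of 0.31 (Spearman rho 0.30), and r was −0.27 once the group means were removed. The tested microRNA whose pattern was most like that of miR-26a-5p was MIMAT0000158, with a Pearson r of 0.80 over the 16 libraries (Spearman rho 0.81). In compound KO against WT, MIMAT0000158 gave a log2 fold change of −0.63 (SE 0.13), and in Xbp1 KO against WT one of −0.36 (SE 0.13). The pattern most like that of miR-26b-5p was that of MIMAT0000535, with a Pearson r of 0.85 (Spearman rho 0.84). It was lower in compound KO than in Xbp1 KO by a log2 fold change of −0.60 (SE 0.16), and gave −0.44 in compound KO against WT (SE 0.16). All of these share libraries and scaling with the members and were picked for their likeness over the same libraries, group differences included, so that a difference between the same groups is partly built in and is given with no test. The files do not pair the identifiers with names.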

How the data were processed

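Per the labels' protocols, sorted cDC1s went directly into lysis buffer, and small RNA libraries were made and size selected. Per the submitters' processing notes, the tools were limma 3.42.2, Bowtie 1.1.2, cutadapt 1.8.1 and FastQC 0.11.3, with GRCm38 (mm10). The sources used here give neither their roles nor the counting rule. The authors deposited raw read counts for 853 mature microRNAs and log2 values for 473 of them, which equal the log2 of the count plus 0.5 less a constant per library.

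Counts were fitted in edgeR 4.0.16 (R 4.3.3): TMM, filterByExpr (count minimum 10, leaving 255 microRNAs), 1 quasi-likelihood fit of 16 libraries with 4 group means, two-sided F tests, Benjamini-Hochberg adjustment over all tested, threshold 0.05. SE was taken from the log2 fold change and its F statistic. For log2 CPM the prior count was 1. Shares were compared by exact permutation over libraries. No 2 libraries of a group were alike within counting noise (chi-square per degree of freedom at least 15.7). The steps were also run on simulated counts, drawn with 1 spread common to all microRNAs. The outcome is not given here and does not measure power or error for the members.

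Members, lists and tests were chosen with earlier results of these data known. The naming rule took the members in every comparison, the other arms of their hairpins, the 3 microRNAs most alike in pattern to each member, neighbours in rank, and members of 2 lists (microRNAs known to share targets with miR-26, and markers of other cells). The RefSeq table holds 0 miRBase identifiers, so other arms and both lists could not be matched and were not analysed here. For the same reason 1 most alike microRNA per member is named, and rank neighbours are not. Alternatives were other scalings and filters, DESeq2 1.42.0 without independent filtering, limma 3.58.1 with voom or on the deposited log2 values, thinning, total count as covariate, other control groups, the replicate block and leaving out libraries.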

Additional observations from a re-analysis of the deposited data

How the results depend on the processing

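Of 810 values of 22 results under an alternative, 728 kept their direction and their side of the threshold, 61 passed where the reported value had not, 21 changed sign (none past the threshold) and 0 lost a call, since none was reported. With upper-quartile scaling in edgeR, which moved the median of all microRNAs from 0.04 to −0.24 in compound KO against WT, these log2 values passed: −0.53 for miR-26a-5p and −0.52 for the sum in that comparison, −0.56 and −0.57 for their difference of the changes, −0.44, −0.66 and −0.45 for miR-26a-5p, miR-26b-5p and the sum between the KO genotypes, and −0.25 and −0.24 for the mean changes of miR-26a-5p and the sum. With total counts alone, −0.36 and −0.36 for miR-26a-5p and the sum in compound KO and −0.28 and −0.27 for their mean changes passed. DESeq2 passed −0.26 and −0.26 for these in compound KO, −0.24, −0.46 and −0.27 for miR-26a-5p, miR-26b-5p and the sum between the KO genotypes, and −0.16 and −0.16 for the mean changes of miR-26a-5p and the sum. miR-26b-5p between the KO genotypes passed at −0.46 with DESeq2 size factors in edgeR and at −0.58 without the filter, miR-26a-5p in compound KO at −0.32 with a filter of 10 CPM in 4 libraries, and miR-26a-5p and the sum at −0.28 and −0.28 with all WT libraries as control. The cause was not tested.

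Signs changed for log2 values near 0: in Xbp1 KO, 0.029 for miR-26a-5p and 0.045 for the sum (upper-quartile), −0.016 for miR-26b-5p (total counts) and 0.0075 for the sum after thinning. Between the WT groups they became 0.12, 0.039 and 0.11 for miR-26a-5p, miR-26b-5p and the sum (upper-quartile) and 0.029 and 0.023 for miR-26a-5p and the sum (total counts). After thinning the differences of the share were 0.11 percentage points for compound KO against WT and −0.017 between the WT groups.

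Leaving out 1 library, with the filter refitted or (chosen after seeing the data) with the microRNAs held fixed, gave in Xbp1 KO against WT −0.16 to −0.019 for miR-26a-5p and 0.00037 to 0.19 for miR-26b-5p, in compound KO against WT −0.36 to −0.20, −0.37 to −0.13 and −0.35 to −0.21 for miR-26a-5p, miR-26b-5p and the sum, and between the KO genotypes −0.33 to −0.16, −0.60 to −0.35 and −0.32 to −0.20 for miR-26a-5p, miR-26b-5p and the sum. For the difference of the changes it gave −0.31 to −0.11, −0.49 to −0.21 and −0.28 to −0.13 in that order. For the mean changes it gave −0.23 to −0.15 for miR-26a-5p and −0.13 to −0.024 for miR-26b-5p. Between the WT groups it gave −0.092 to 0.017 for miR-26a-5p, −0.22 to −0.036 for miR-26b-5p and −0.093 to 0.0040 for the sum. The share difference ran from −0.79 to 0.32 points for compound KO against WT and from −0.032 to 0.99 between the WT groups, so that 1 library set its sign.

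The labels do not say whether the replicate numbers pair the libraries, and correlations within groups of 4 are too few to decide it. Same-numbered libraries of compound KO and WT deviated together with r of −0.26 to 0.26, those of the KO genotypes with −0.07 to 0.10, and only replicate 3 correlated best with its own number. With the replicate block miR-26a-5p stood at −0.30 in compound KO against WT (edgeR adjusted p 0.201) and miR-26b-5p at −0.44 between the KO genotypes (edgeR adjusted p 0.0771). Against edgeR fits of the same groups without the block, the calls over all microRNAs went from 9 to 4 and from 8 to 19. The Xbp1-line WT shares only number 4 with the other groups, so no block was fitted there. Calls over all microRNAs ranged over the alternatives from 2 to 18 (reported 6) in Xbp1 KO, 4 to 30 (15) in compound KO, 0 to 3 (0) for the difference, 0 to 32 (19) between the KO genotypes, 0 to 14 (0) between the WT groups and 11 to 33 (19) for the mean.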
